A study of Drosophila melanogaster with 5 samples.

Results

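Cytochrome P450 enzymes are haem proteins that add oxygen to small molecules. In Drosophila, those outside ecdysone synthesis and breakdown are known mainly for clearing plant compounds and insecticides, and for making cuticular hydrocarbons, pheromone precursors and other lipids. Insect P450 genes fall into 4 clans. Clan 3 (the Cyp6, Cyp9 and Cyp28 families among others) holds most of the known detoxification enzymes, clan 4 (Cyp4 and its relatives) holds fatty acid and hydrocarbon enzymes as well, the mitochondrial clan takes its electrons through ferredoxin, and clan 2 is small. The P450 genes described here are those whose symbol is Cyp followed by a digit, without Cyp18a1, which inactivates ecdysone. Of 82 such symbols, Cyp1 was set aside because it encodes a cyclophilin, which left 81 P450 genes of 16463 genes measured by both the FPKM and the count table. A gene was taken as present if it reached 1 FPKM (fragments per kilobase of transcript, scaled to the fragments sequenced) in either group.

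The RNA came from the central nervous system (CNS) of larvae in the third instar at 84 h after egg laying, with about 15 CNS pooled per sample. Control larvae, with 3 biological replicates, carried UAS-dsitpr and UAS-dicer, each over a wild-type chromosome, and no GAL4 driver. Knockdown larvae, with 2 biological replicates, carried the same UAS transgenes together with ElavC155GAL4, a pan-neuronal driver, so that RNAi against the inositol trisphosphate receptor (IP3R) was on in neurons. The methods of the study name another driver, VGN6341-GAL4, for the sequenced larvae, whereas a figure legend of the study names the same driver as the labels for these data, and the labels are followed here. The driver and its chromosome were present only in the knockdown larvae, so their part and that of IP3R loss cannot be told apart. The tables give the mean of each group. The mean normalized counts were written with enough digits to be split into whole reads per library, which gave library values called here control A, B and C and knockdown D and E. The letters are not the replicate numbers of the labels. A normalized count is the number of reads divided by the size factor of the library, which was 0.826 to 1.12 for the controls, 1.15 for D and 0.852 for E. The reads in D summed to 13468913 and those in E to 10358289. Every gene could be split in the knockdown group, whereas in the control group the split was unique for 37 of the 63 P450 genes present, mostly those with a mean below 300 normalized counts.

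The targeted gene Itp-r83A was at 24.7 FPKM in control and 15.0 in knockdown, and its normalized count was 2032 in D and 1995 in E against a control mean of 3063. Dcr-2, whose transgene the UAS-dicer line carries, was at 31.3 and 96.7 FPKM. Both were as the labels describe. Neuronal and glial markers marked the tissue in both groups: nSyb, a synaptic vesicle protein, was at 157 and 146 FPKM in control and knockdown, and the glial gene repo at 79.6 and 78.3. Of 5 neuronal markers measured, 2 (elav and brp) were at least 25% lower in knockdown, and of 5 glial markers none was.

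Of the 81 P450 genes, 63 were present in the larval CNS. They were 30 of 37 in clan 3, 23 of 32 in clan 4, 7 of 9 in the mitochondrial clan and all 3 in clan 2. Their summed level was 1209 FPKM in control and 1173 FPKM in knockdown, and the 5 most abundant genes made up 36.2% of the control sum. None of these 5 changed by 25%. Cyp4g15, a clan 4 gene of the same family as the hydrocarbon-forming Cyp4g1, was at 108 FPKM in control and 109 in knockdown (mean normalized counts 3240 and 3265, with 2991 in D and 3538 in E). The other 4 were clan 3 genes. Cyp28a5 was at 95.7 and 87.6 FPKM in control and knockdown, with mean normalized counts of 2025 and 1864. Cyp9f2 stood at 81.1 and 85.5 FPKM, with counts of 1561 and 1658. Cyp9c1 had 78.1 and 79.5 FPKM, with counts of 1525 and 1531. Cyp6g2, known for insecticide resistance when it is overexpressed, was at 75.3 and 66.3 FPKM, with counts of 1623 and 1437. For Cyp28a5, Cyp9f2, Cyp9c1 and Cyp6g2 the 2 knockdown libraries lay close to each other (1844 and 1884, 1627 and 1688, 1545 and 1517, 1491 and 1382 normalized counts in D and E).

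**Figure D1:**
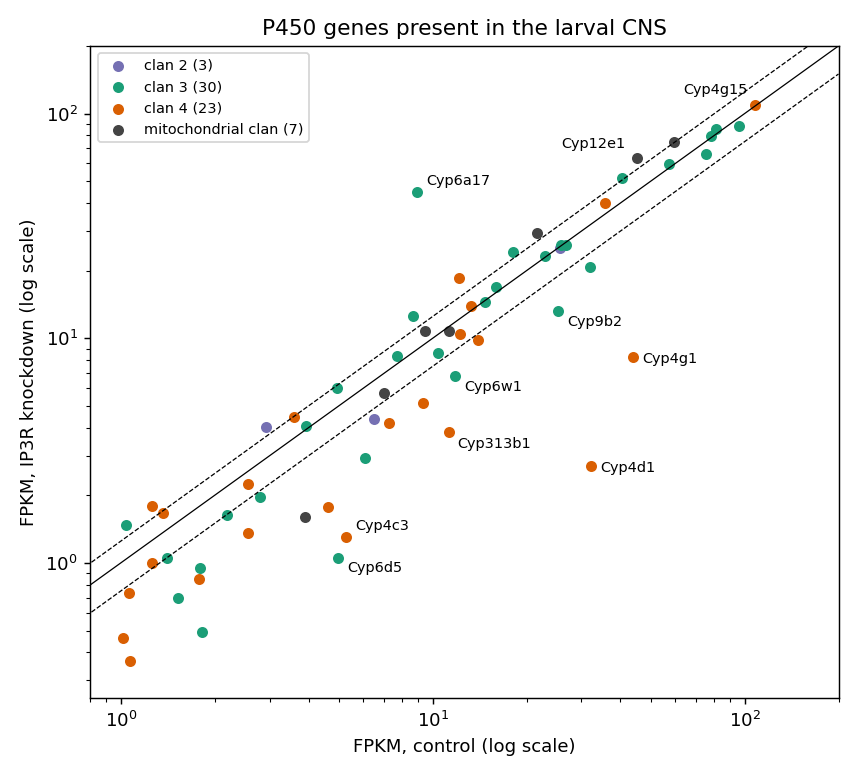
FPKM of the 63 P450 genes present, control on the x axis and IP3R knockdown on the y axis, both log scales. Each point is a gene, coloured by clan. The solid line marks equal levels, and the dashed lines mark a change of 25% either way. Most abundant genes lie near the solid line, Cyp6a17 lies far above it, and Cyp4d1 and Cyp4g1 lie farthest below it among the genes over 10 FPKM in control.

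A gene was called lower or higher if its knockdown-to-control ratio was at least 25% below or above 1 in both the FPKM and the mean normalized count table, the minimum change used by the study. By this rule 18 P450 genes (28.6% of those present) were lower, against a background of 14.8% of all genes present, and 11 (17.5%) were higher, against 12.9%. The lower genes were 9 of 30 in clan 3, 8 of 23 in clan 4 and 1 of 7 in the mitochondrial clan. The higher genes were 5 in clan 3, 2 in clan 4, 3 in the mitochondrial clan and 1 in clan 2. The median log2 ratio of the P450 genes present was -0.18 in FPKM and -0.12 in normalized counts, beside 0.03 and 0.04 over all genes present. By clan the median in FPKM was -0.53 for clan 4, -0.03 for clan 3, -0.02 for clan 2 and 0.19 for the mitochondrial clan. In normalized counts the clan medians were -0.23, -0.05, -0.005 and 0.15 in the same order, so the clan 4 shift was smaller there. These counts use group means only, and they moved with 1 library. With knockdown E alone, 26 P450 genes were lower by 25% in normalized count and 6 higher. With knockdown D alone, 11 were lower and 18 higher. Single-library counts were not made over all genes, so no background share stands beside them.

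Library values gave 2 further measures. Among the 37 P450 genes with a unique split, both knockdown libraries lay below all 3 controls for 9 genes, against a background of 18.7% of genes with a unique split, and above all 3 for 4 genes, against 26.5%. These are 24.3% and 10.8% of the 37. Among the 26 genes with several possible splits, Cyp4d1 was below and Cyp12e1 above the controls in every one. A linear model (limma-voom, Benjamini-Hochberg adjustment over 3446 genes) tested 38 P450 genes and passed 1 lower gene, Cyp313b1, beside 0.464% of all genes tested, and 1 higher gene, Cyp6a17, beside 0.9%.

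Cyp6a17 had the largest increase among the P450 genes present. It is a clan 3 enzyme known for a role in temperature preference behaviour in the fly brain. The gene lies on chromosome 2R at 14873953 to 14875739 (dm6 assembly, plus strand). Its normalized counts were 131, 141 and 155 in control A, B and C and 870.5 and 604 in knockdown D and E. Both knockdown libraries were far above all 3 controls. In FPKM it rose from 8.92 to 44.8, a ratio of 5.02, and its log2 change by limma-voom was 2.38 ± 0.24 (SE, adjusted p = 0.0368). Without 1 library at a time the log2 change was between 2.09 and 2.61, so the size held. Fits without D or E leave 1 knockdown library, so no p-value is given for them, here or below. Without 1 control library the adjusted p was between 0.0353 and 0.293, and the call was lost without A or B. In those 2 fits 0 of the 3446 genes tested were called, so the loss was not particular to Cyp6a17.

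Cyp6a17 stands in a row of clan 3 genes on 2R, and the genes on either side of it were not higher by the 25% rule. Cyp6a22, which lies 247 bases before it, was at 1.41 and 1.05 FPKM in control and knockdown (ratio 0.746). Its mean normalized counts were 26.7 and 19.5. Cyp6a23, which lies 89 bases after Cyp6a17 and is its close copy, was at 14.7 and 14.5 FPKM (ratio 0.985). These near-equal means hid a gap between its knockdown libraries, with 400 normalized counts in D and 154 in E against a control mean of 279. The control reads of Cyp6a23 allowed 2 splits, so its spread among controls is unknown. Reads that align to both copies could be placed with either, so the levels of Cyp6a17 and Cyp6a23 are uncertain to that extent. Cyp6a19, the next gene, was under the 1 FPKM minimum (0.0405 and 0.504 FPKM) but lay above the controls in both knockdown libraries, with normalized counts of 14.3, 9.05 and 12.1 in the controls and 20.9 and 19.9 in knockdown. Its exons overlap those of Cyp6a9 by 397 bases, so its counts are uncertain. The genes present after it were lower or within 25%. Cyp6a9 was at 31.8 and 20.8 FPKM, with mean normalized counts of 677 and 444 and knockdown values of 528 in D and 360.1 in E. The control reads of Cyp6a9 allowed 3 splits, over which the adjusted p by limma-voom ran from 0.141 to 0.679. Cyp6a20, known for a role in male aggression, was at 10.4 and 8.63 FPKM. Cyp6a21 had normalized counts of 91.9, 96.0 and 114 in the controls and 62.7 and 35.2 in the knockdown libraries, so the groups did not overlap. In FPKM Cyp6a21 was at 6.08 and 2.94, a ratio of 0.485, and its adjusted p by limma-voom was 0.129.

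**Figure D2:**
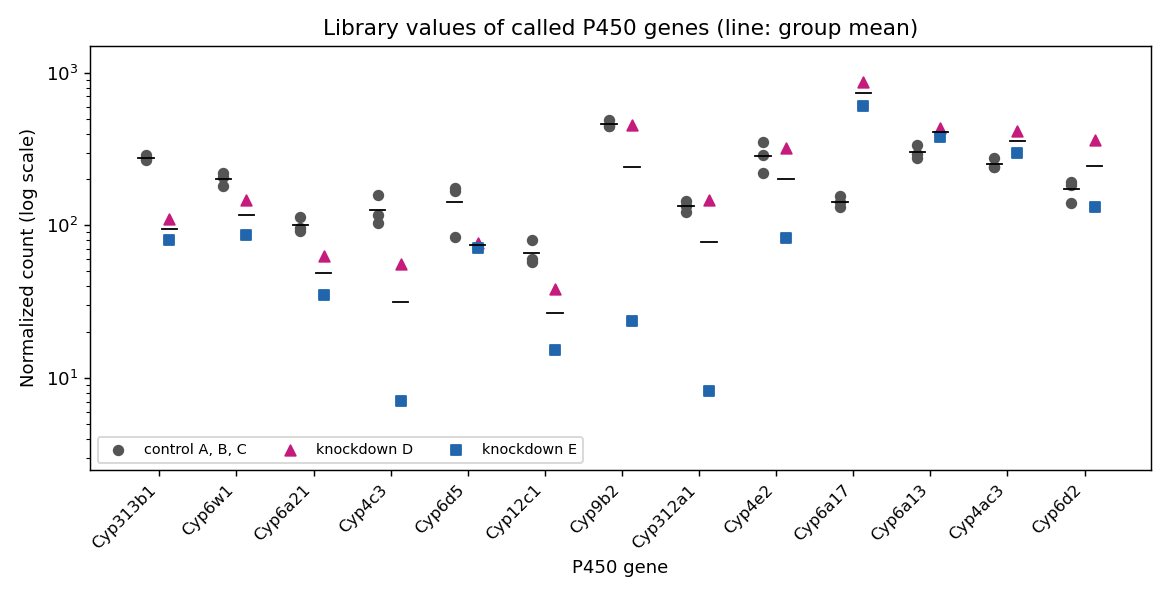
Normalized counts (log scale) of 13 called P450 genes in the 5 libraries. Grey circles are control A, B and C, triangles knockdown D, squares knockdown E, and short lines the group means. Both knockdown values lie below all controls for the first 6 genes and above them for Cyp6a17, Cyp6a13 and Cyp4ac3, while for Cyp9b2, Cyp312a1 and Cyp4e2 only E lies below the controls.

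In clan 4 the lower genes included those with the largest decreases. Cyp4d1, at 32.2 FPKM in control and 2.69 in knockdown (ratio 0.0836), had 69.6 normalized counts in D and 16.4 in E against a control mean of 491. The control reads allowed 2 splits, with 348 or 402 normalized counts in the lowest control, so that both knockdown libraries were below every control in each. Its log2 change by limma-voom was -3.62 or -3.61 with the 2 splits, with an adjusted p of 0.0684 or 0.0955. Cyp4g1, the oenocyte enzyme that makes cuticular hydrocarbons, could be fitted only split by split. Its level was 44.0 FPKM in control and 8.24 in knockdown (ratio 0.188). It had 329.9 normalized counts in D and 68.0 in E against a control mean of 1058. The control reads of Cyp4g1 allowed 6 splits, over which the log2 change ran from -2.76 to -1.001 and the adjusted p from 0.0819 to 0.84, so its spread among controls is unknown.

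Cyp313b1, on chromosome 3R at 8643070 to 8645650 (dm6, minus strand), had normalized counts of 289, 272 and 266 in the controls and 111 and 79.8 in the knockdown libraries. The groups were well apart, with little spread among the controls. In FPKM it fell from 11.3 to 3.83, a ratio of 0.34, and the log2 change by limma-voom was -1.55 ± 0.19 (SE, adjusted p = 0.0449). With 1 library left out, the log2 change was between -1.78 and -1.32. With 1 control library left out, the adjusted p was between 0.0491 and 0.293, past the threshold only without C. Without A or B, 0 of the 3446 genes tested were past it. Raising the minimum mean to 50 normalized counts gave an adjusted p of 0.0715, lowering it to 5 gave 0.0566, and for Cyp6a17 the higher minimum gave 0.0612. At the higher minimum 0 of the 2312 genes tested were called.

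Cyp4c3 had normalized counts of 157, 104 and 116 in the controls and 55.7 and 7.04 in the knockdown libraries, with FPKM of 5.29 and 1.30. Both knockdown libraries were below the controls, but they also differed widely from each other, and the adjusted p by limma-voom was 0.153. Cyp311a1 was close to the 1 FPKM minimum, at 1.02 and 0.464 FPKM. Its normalized counts of 16.9, 17.2 and 14.5 in the controls and 9.58 and 5.87 in knockdown did not overlap. Cyp4s3 was at 9.28 and 5.15 FPKM, with mean normalized counts of 242 and 133 and knockdown values of 158 and 109. One of its 2 control splits puts control C near 0, so the overlap of its groups is not known. Cyp312a1 and Cyp4e2 were lower by their means through library E only. Cyp312a1 had 135, 144 and 122 in the controls, 147 in D and 8.21 in E, and FPKM of 7.27 and 4.22. Cyp4e2 had 287, 351 and 220.3 in the controls, 322 in D and 82.1 in E, and FPKM of 13.9 and 9.84. For these 2 genes D lay at or above the control mean.

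Clan 4 also had 2 higher genes. Cyp4ac3 had 242, 276 and 241 normalized counts in the controls and 414 and 299 in the knockdown libraries, with FPKM of 12.2 and 18.5. Its groups did not overlap, and its adjusted p by limma-voom was 0.189. Its neighbour Cyp4ac1, which lies with it inside the gene tkv, had 258, 375 and 252 in the controls, 527 in D and 84.5 in E, so its near-equal means of 13.3 and 13.9 FPKM hid the widest gap between knockdown libraries of the trio. Cyp4d8 was at 1.26 and 1.80 FPKM, with 23.2, 38.0 and 4.84 normalized counts in the controls and 52.2 and 10.6 in the knockdown libraries. The 2 groups overlapped for Cyp4d8.

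In clan 3, beyond the Cyp6a row, Cyp6w1 had 207, 219 and 182 normalized counts in the controls and 146 and 86.8 in the knockdown libraries. Its groups did not overlap, FPKM was 11.8 and 6.79, and the adjusted p by limma-voom was 0.141. Cyp6d5 had 169, 176 and 83.5 in the controls and 76.6 and 71.6 in the knockdown libraries, so the groups were apart only narrowly, and control C was far below A and B. The 2 tables gave Cyp6d5 different ratios, 0.211 in FPKM (4.99 and 1.05) and 0.52 in normalized counts. Cyp9b2 had 449, 449 and 489 in the controls and 456 in D, and only 23.5 in E. Its mean FPKM of 25.3 and 13.2 therefore rests on E, and without E its ratio was 0.987. Its neighbour Cyp9b1 had 19.6, 29.0 and 56.9 in the controls and 15.7 and 7.04 in the knockdown libraries (1.82 and 0.493 FPKM), which did not overlap.

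The other lower clan 3 genes were low in level. Cyp308a1 was at 1.53 and 0.70 FPKM, with 42.8, 42.5 and 59.3 normalized counts in the controls and 37.4 and 23.5 in the knockdown libraries. Cyp6a2, known to metabolise insecticides, was at 2.19 and 1.64 FPKM, with 60.7, 61.6 and 31.5 in the controls and 40.0 and 31.7 in knockdown. The groups did not overlap for Cyp308a1 and overlapped for Cyp6a2. Cyp6a22 had 23.2, 21.7 and 35.1 in the controls and 26.1 and 12.9 in knockdown, which overlapped as well.

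Higher clan 3 genes changed less than Cyp6a17. Cyp6a13 had 293, 278 and 335 normalized counts in the controls and 437 and 378 in the knockdown libraries. Its groups did not overlap, FPKM was 18.0 and 24.2, and the log2 change was 0.45 ± 0.14 (SE, limma-voom adjusted p = 0.145). Cyp28d1 was at 40.5 and 51.5 FPKM, with mean normalized counts of 767 and 983 and knockdown values of 1058 and 907. Over the 2 control splits of Cyp28d1 the adjusted p by limma-voom was 0.129 or 0.417. Cyp6d2 had 184, 194 and 139 in the controls, 360.4 in D and 131 in E, so that its higher mean in knockdown (8.63 and 12.5 FPKM) rests on D and turns to a lower value without it. Cyp6g1, known for DDT resistance when overexpressed, was just above the minimum at 1.04 and 1.48 FPKM. It had 28.5, 27.2 and 26.6 in the controls and 28.7 and 55.1 in knockdown, with D barely above the highest control.

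The mitochondrial clan had 3 higher genes, all among its most abundant. Cyp12a4, known for resistance to the growth regulator lufenuron when overexpressed, was at 59.5 and 74.98 FPKM. Its mean normalized counts were 1129.9 and 1427, with the knockdown libraries almost equal at 1430.2 and 1424. The control reads of Cyp12a4 allowed 3 splits, over which the adjusted p by limma-voom ran from 0.135 to 0.548, so its spread among controls is unknown. Cyp12e1 was at 45.4 and 63.7 FPKM, a ratio of 1.41, with 1336 in D and 1121 in E against a control mean of 857. Both libraries of Cyp12e1 were above the controls in each of its 2 splits, and the adjusted p by limma-voom was 0.108 or 0.199. Cyp12b2 was at 21.6 and 29.5 FPKM, with mean normalized counts of 447 and 621 and knockdown values of 667 and 576. Over the 2 control splits of Cyp12b2 the adjusted p was 0.111 or 0.461. Its relative Cyp12c1 went the other way. It had 59.8, 57.9 and 79.9 normalized counts in the controls and 38.3 and 15.3 in the knockdown libraries (3.89 and 1.60 FPKM). Its groups did not overlap, and its adjusted p by limma-voom was 0.157. Cyp301a1, an enzyme of cuticle formation, was near equal at 11.3 and 10.8 FPKM.

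Clan 2 had 1 higher gene, Cyp304a1, at 2.92 and 4.01 FPKM. Its normalized counts were 64.2, 51.6 and 49.6 in the controls and 63.5 and 91.5 in the knockdown libraries, which overlapped. Cyp305a1 was at 25.6 and 25.3 FPKM. Cyp303a1, needed for sensory bristle structure, was lower in FPKM (6.49 and 4.36) but had 146, 150.3 and 155 normalized counts in the controls and 149 and 115 in knockdown.

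The 2 knockdown libraries were far apart for many P450 genes. Among genes with a mean of at least 20 normalized counts in the knockdown group, D was at least 2 times E for 15 of 60 P450 genes (25.0%), and for 607 of 10668 genes (5.69%). E was at least 2 times D for none of the P450 genes and for 111 of all genes (1.04%). The median ratio of D to E was 1.34 for P450 genes and 0.994 for all genes. All 18 lower P450 genes were past 25% in E, and 11 were in D: Cyp12c1, Cyp311a1, Cyp313b1, Cyp4c3, Cyp4d1, Cyp4g1, Cyp4s3, Cyp6a21, Cyp6d5, Cyp6w1 and Cyp9b1. The other 7 were Cyp308a1, Cyp312a1, Cyp4e2, Cyp6a2, Cyp6a22, Cyp6a9 and Cyp9b2. Of the 11 higher genes, 4 were past 25% in both libraries: Cyp6a17, Cyp12a4, Cyp12b2 and Cyp12e1. Called genes were not divided by library in this way over all genes.

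**Figure D3:**
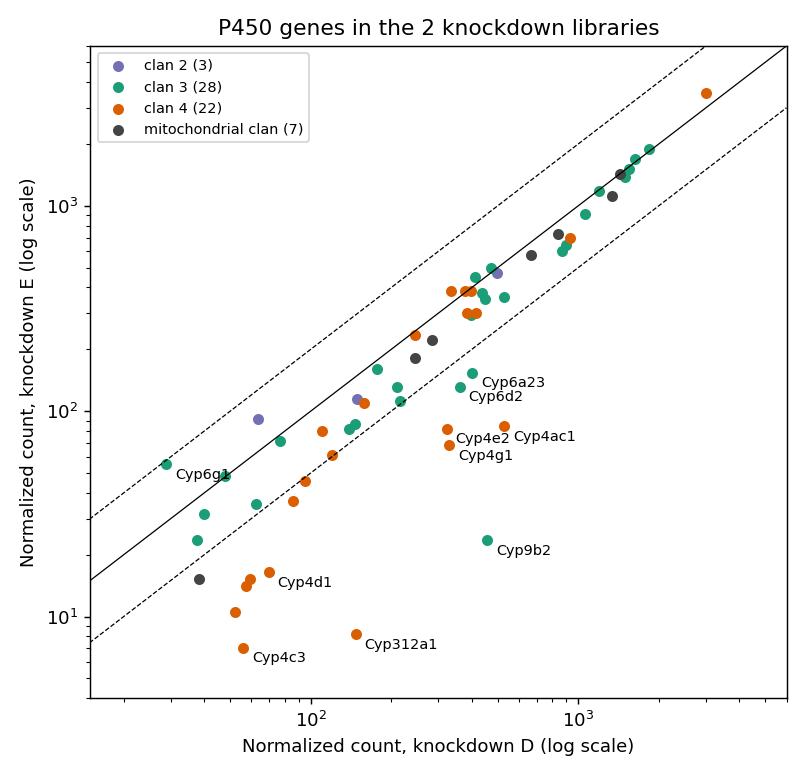
Normalized counts of 60 P450 genes in knockdown D (x axis) and knockdown E (y axis), both log scales, coloured by clan. The solid line marks equal values and the dashed lines a 2-fold gap. The points below the lower dashed line are 15 genes, mostly of clan 4, and Cyp9b2 and Cyp312a1 are farthest from it.

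Marker lists of 4 other tissues were also lower in E than in D. For the counts of called markers below, the share called lower over all genes present was 14.8%. Of the 7 fat body markers, 5 were called lower, and their summed normalized count was 15712 in control, 11011 in D and 4416 in E. Hemocyte markers (4 of 5 lower) summed to 18704, 15063 and 5599, and muscle markers (6 of 6 lower) to 19142, 11789 and 5536. Cuticle and epidermis markers (6 of 7 lower) summed to 4319 in control and to 640 and 138 in D and E. No marker of these 4 lists was at 0 in either group. In the oenocyte list 1 of 4 was lower, FASN2 (listed as v(2)k05816), a fatty acid synthase, with 223, 190 and 178 normalized counts in the controls and 55.7 and 16.4 in knockdown. FASN3 (listed as CG17374), under 1 FPKM in both groups, had 62.4, 102 and 38.7 in the controls and 45.3 and 15.3 in knockdown. The oenocyte list as a whole summed to 4904 in control, 4496 in D and 4729 in E. Most of that sum came from KAR (listed as CG1444) and Cpr, with control means of 2148 and 2492, neither past 25%. No other sum had a gap between D and E of the size seen in the first 4 lists. Salivary gland markers (6 of 7 lower) summed to 2587 in control, 35.7 in D and 59.8 in E, and Sgs5 was at 0 in both knockdown libraries. Trachea markers (1 of 5 lower) summed to 7083, 6269 and 5485, and midgut markers (2 of 5 lower, 2 higher) to 598, 460 and 434. Ring gland markers summed to 6200 in control, 6896 in D and 6927 in E, and glial markers to 13438, 12386 and 14525. Neuronal markers (2 of 5 lower) summed to 16859 in control, 11682 in D and 13765 in E, lower in both knockdown libraries. The control means of these lists also hide a difference among the controls, where single libraries could be read. The fat body gene Fbp2 had 531, 501 and 8.47 normalized counts in A, B and C, beside 229.8 and 54.0 in D and E. Likewise C was far below A and B for the salivary gland genes Sgs4 (239, 183 and 25.4) and Sgs7 (265, 241 and 10.9) and for the midgut gene Mal-A1 (91.0, 79.7 and 18.2). In RNA from whole tissue, fewer cells of a type and less RNA per cell cannot be told apart. The part of these tissues in the lower P450 genes was not tested.

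The FPKM and count tables gave different ratios for some P450 genes that share a locus with another gene. Of the 63 genes present, 16 lie inside another gene. Per FPKM, the median P450 gene present had 20.4 normalized counts, and 9 genes had more than 2 times that. Of these 9, 7 are among those 16: Cyp4p1, Cyp4p2 and Cyp4p3 in hig, Cyp49a1 in Galphao, Cyp310a1 in MESR3, Cyp4d20 in Svil and Cyp4ac2 in tkv. The exons of the other 2, Cyp317a1 and Cyp4d14, overlap those of Kank and ND-B14.5A. Reads of the partner gene may be counted with these members, so their library values are uncertain. For Cyp49a1 (0.819 and 0.842) and Cyp4ac2 (0.795 and 0.838) the FPKM and count ratios were nonetheless close, as they were for other genes inside a host, such as Cyp4g1 (0.188 in both) and Cyp4ac1 (1.05 and 1.04). For Cyp310a1 the count ratio was the lower one, at 1.03 in FPKM and 0.814 in normalized counts. Lower in FPKM but not in normalized counts were 8 genes, of which 6 belong to these 9. Cyp4p2 had the widest disagreement, with a ratio of 0.341 in FPKM (1.07 and 0.365) and of 0.884 in normalized counts (408 and 361). Cyp4p1 had ratios of 0.384 and 0.829, Cyp4p3 of 0.529 and 0.889, Cyp317a1 of 0.525 and 0.954, Cyp4d20 of 0.475 and 0.795, and Cyp4d14 of 0.693 and 0.967. The other 2 were Cyp303a1, whose exons overlap those of heix, and Cyp6t3. Cyp6d5 and Cyp308a1, called lower in both tables, also lie inside another gene, rdx and CCKLR-17D1. Their ratios were 0.211 and 0.458 in FPKM and 0.52 and 0.631 in normalized counts. Reads of the host gene may be counted with these 2 as well. No P450 gene was higher in FPKM alone, and none was called in opposite directions by the 2 tables. The remaining 26 genes present were past 25% in neither table, with FPKM ratios from 0.795 for Cyp4ac2 to 1.24 for Cyp313a4.

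**Figure D4:**
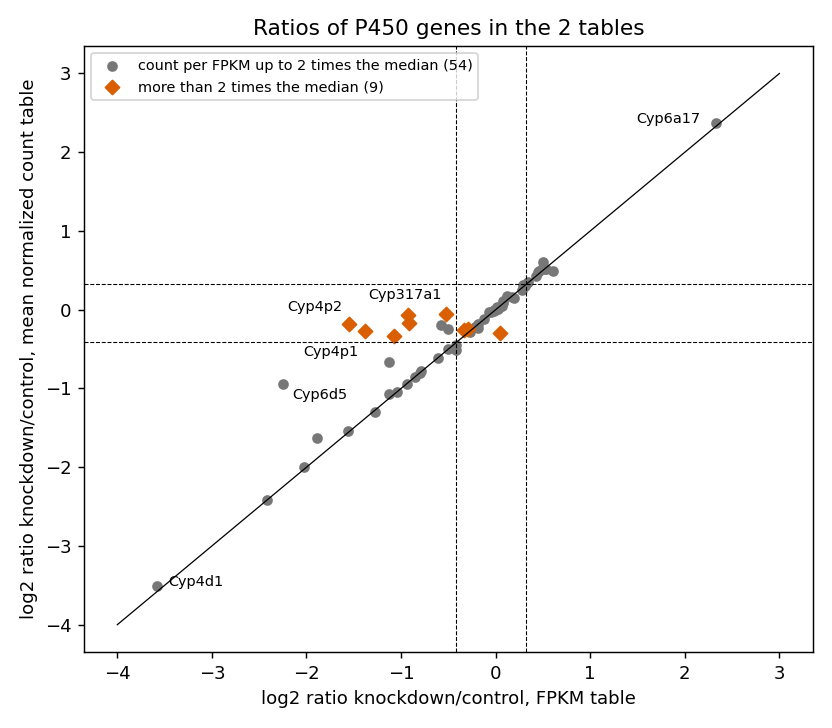
Log2 ratios of knockdown to control of the 63 P450 genes present, from FPKM (x axis) and from mean normalized counts (y axis). Diamonds are the 9 genes with more than 2 times the median normalized count per FPKM, dashed lines mark a change of 25% either way, and the solid line marks equal ratios. Diamonds such as Cyp4p2 lie left of the solid line, near 0 in normalized counts, whereas the diamond of Cyp310a1 lies right of it. Cyp6a17 and Cyp4d1 lie on the line at its ends.

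P450 enzymes take electrons from redox partners. Cpr, the reductase of microsomal P450s, was at 85.0 and 80.3 FPKM in control and knockdown, and Cyt-b5, an electron carrier, at 155 and 161. For the mitochondrial clan, the ferredoxin reductase gene dare was at 46.2 and 48.6 FPKM and the ferredoxin genes Fdxh and Fdx2 (listed as CG1319) at 70.1 and 85.6 and at 80.9 and 91.1. Of 6 such genes, 1 was called lower and none higher, beside 14.8% and 12.9% of all genes present. That was Cyt-b5-r, at 33.8 and 7.14 FPKM, with 186 normalized counts in D and 39.9 in E against a control mean of 537.

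Among 8 regulators known to control detoxification genes or their partners, 3 were called lower and none higher. Over all genes present the shares were 14.8% lower and 12.9% higher, and 8 genes are too few to set against them. Met and gce, the juvenile hormone receptors, were at 15.6 and 9.02 and at 12.6 and 8.42 FPKM, and their knockdown libraries lay together (454 and 397, and 1124 and 1144 normalized counts, against control means of 686 and 1736). The bHLH-PAS factor ss, the fly homolog of the dioxin receptor, was at 2.70 and 1.39 FPKM, but control C (54.5) was below both knockdown libraries (67.0 and 75.1) while A and B were at 182 and 162. The stress factor cnc was at 39.8 and 32.5 FPKM and was past 25% in normalized counts alone. Its mean normalized counts were 1973 and 1462 (ratio 0.741), with 1430 in D and 1495 in E. The inhibitor of cnc, Keap1, was at 19.4 and 18.8 FPKM. The partner maf-S, the xenobiotic receptor Hr96 and the PAS partner tgo were not past 25%.

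The 18 P450 genes under 1 FPKM in both groups were Cyp309a1, Cyp309a2, Cyp6a8, Cyp6a16, Cyp6a18, Cyp6a19 and Cyp6t1 in clan 3, Cyp4e1, Cyp4e3, Cyp4aa1, Cyp4d21, Cyp313a1, Cyp313a2, Cyp313a3, Cyp313a5 and Cyp316a1 in clan 4, and the near-identical pair Cyp12d1-d and Cyp12d1-p in the mitochondrial clan. Just outside the minimum, Cyp6a8 had 0.98 FPKM in control and Cyp4e1 0.876, and just inside it Cyp311a1 had 1.02 and Cyp6g1 1.04. Cyp6a8, known to respond to caffeine, had 28.5 and 28.1 normalized counts in A and B, but 2.42 in C, 3.48 in D and 9.38 in E. Cyp6a16 was listed at 0 FPKM in knockdown and Cyp316a1 in both groups.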

How the data were processed

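RNA was measured in 5 libraries, 3 control and 2 IP3R knockdown. The authors aligned reads to dm6 with TopHat2 2.0.11, removed PCR duplicates and deposited 3 tables with 1 value per group. In the first, the deposited FPKM values came from Cuffdiff 2.2.0. In the second, the authors divided counted reads by library size factors and deposited the group means, a normalized signal. The third, from edgeR, holds an average log2 CPM that the authors deposited over all libraries and that was not used for any comparison. Fold changes, test statistics and p-values of the authors' comparison in these tables were not used. Columns that give single libraries number 0 in these tables.

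The overall mean equalled the weighted group means with weights 3 and 2, which fixed which group column was control. The group means carry 10 significant digits, and low values are sums of whole multiples of 3 or 2 steps, 1 per library. Whole reads were solved from them with a slack of 2e-12 per read. All 15054 knockdown means above 0 had exactly 1 solution. Of 7944 control means up to 500, 7250 had exactly 1 and none had 0. For the P450 genes, control means up to 3500 were split as well. This step was chosen after the tables were seen, and was tested on simulated data. limma 3.58.1 (R 4.3.3, voom, size factors as library sizes) was run on genes with 1 solution and a mean of at least 20 normalized counts, so abundant genes are not in that test. For P450 genes with 2 to 6 solutions, each was fitted. Positions and overlaps came from the Ensembl annotation of the same assembly.

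Full values are given for P450 genes called past 25% in both tables and for the 5 most abundant. The other genes named were chosen after their values were seen. Members and lists were chosen with earlier results of these data known.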

Additional observations from a re-analysis of the deposited data

How the results depend on the processing

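No paired analysis was possible because the recovered libraries could not be linked to the replicate numbers of the labels. In place of the 25% rule, a 1.5-fold rule called 15 lower P450 genes and 1 higher, and a 2-fold rule 8 lower and 1 higher. A minimum of 5 FPKM left 41 P450 genes present, of which 11 were lower and 8 higher, with a median log2 ratio of -0.02. Both knockdown libraries lay below the controls for 5 of them and above for 4. The other settings tried were each table alone, other minimums, scaling by the median ratio of all genes, and an added 1. They kept the counts of lower genes between 16 and 26 and of higher genes between 9 and 14. The median log2 ratio stayed between -0.21 and -0.10. Leaving out 1 knockdown library gave 11 to 26 lower and 6 to 18 higher P450 genes in normalized count. The share over all genes was not computed for any of these settings. By limma-voom, a minimum mean of 50 called 0 lower and 0 higher P450 genes (3 and 3 at an unadjusted p under 0.05). At that minimum 0 of all 2312 genes tested were called in either direction. A minimum of 5 called 0 lower P450 genes (7 unadjusted) and 1 higher, beside 8 and 7 of all 4970 genes tested. In contrast, limma-trend called 1 in each direction, beside 62 lower and 37 higher of all 3446 genes. Leaving out 1 control library gave 0 to 2 lower and 0 to 1 higher P450 genes. Of all 3446 genes, 0 were called without A or without B, and 118 lower and 39 higher without C. Single genes turned direction without 1 knockdown library: on the log2 scale Cyp312a1 (-4.02 to 0.14) and Cyp4e2 (-1.80 to 0.17), and Cyp4d8 (-1.06 to 1.246) and Cyp6d2 (-0.39 to 1.07). The cause was not tested.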
